A study of Rattus norvegicus with 12 samples.

Results

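The 6 S100 genes described here were S100a8, S100a9, S100a4, S100a6, S100a10 and S100a11, taken from the deposited expression table by their gene symbols. They are 6 of 33801 genes in that table, each symbol stood on 1 row, and all 6 were among the 15268 genes tested. Expression was measured in wild-type rat bone taken, within a diameter of 4 mm, from around mini-implants at the maxillary first molar. The implants were of titanium (cpTi) or of the zirconium alloy Zr58Cu25Al14Nb3 (Nb3 alloy), and each kind was either loaded cyclically for 2 weeks or kept static. This gave 4 groups of 3 libraries of polyadenylated RNA, called loaded cpTi, non-loaded cpTi, loaded Nb3 alloy and non-loaded Nb3 alloy. Strain, age and sex were not among the labels used here, every group carried an implant, and bone without an implant was not analysed here. The labels do not say whether replicates came from separate rats, so p-values here speak only of the spread among libraries, which may be technical.

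S100 proteins are small calcium-binding proteins that mostly work as dimers, inside the cell by binding partner proteins and, when released, outside it through cell-surface receptors. S100A8 and S100A9 pair to form calprotectin, an abundant cytosolic protein of neutrophils and monocytes that binds zinc, manganese and calcium and acts as an alarmin, a danger signal set free by stressed or activated cells. S100A4, S100A6, S100A10 and S100A11 are made by many cell types, among them fibroblasts and other stromal cells: S100A4 binds non-muscle myosin and is linked to cell motility, S100A6 binds the calcyclin-binding protein, and S100A10 and S100A11 bind annexins.

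In the bone beside loaded Nb3 alloy the make-up of the S100 transcripts was turned over. S100a8 and S100a9 fell about as far as each other, 46.6-fold and 40.1-fold in mean level against non-loaded Nb3 alloy, while S100a4, S100a6 and S100a10 rose 2.44-fold, 2.75-fold and 2.02-fold. S100a11 did not pass the test. The same 5 genes passed the test, in the same directions, against loaded cpTi. Between the loaded and non-loaded cpTi groups or between the materials without loading 0 of the 6 passed it. Of all tested genes, 20.7% were called higher and 25.2% lower against non-loaded Nb3 alloy, and 14.7% and 18.9% against loaded cpTi. Between the cpTi groups 0.00655% of all tested genes were called, and between the materials without loading 0%. Levels are FPKM, fragments per kilobase of transcript scaled by depth. Comparisons between different genes therefore depend on the length listed for each gene.

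**Figure D1:**
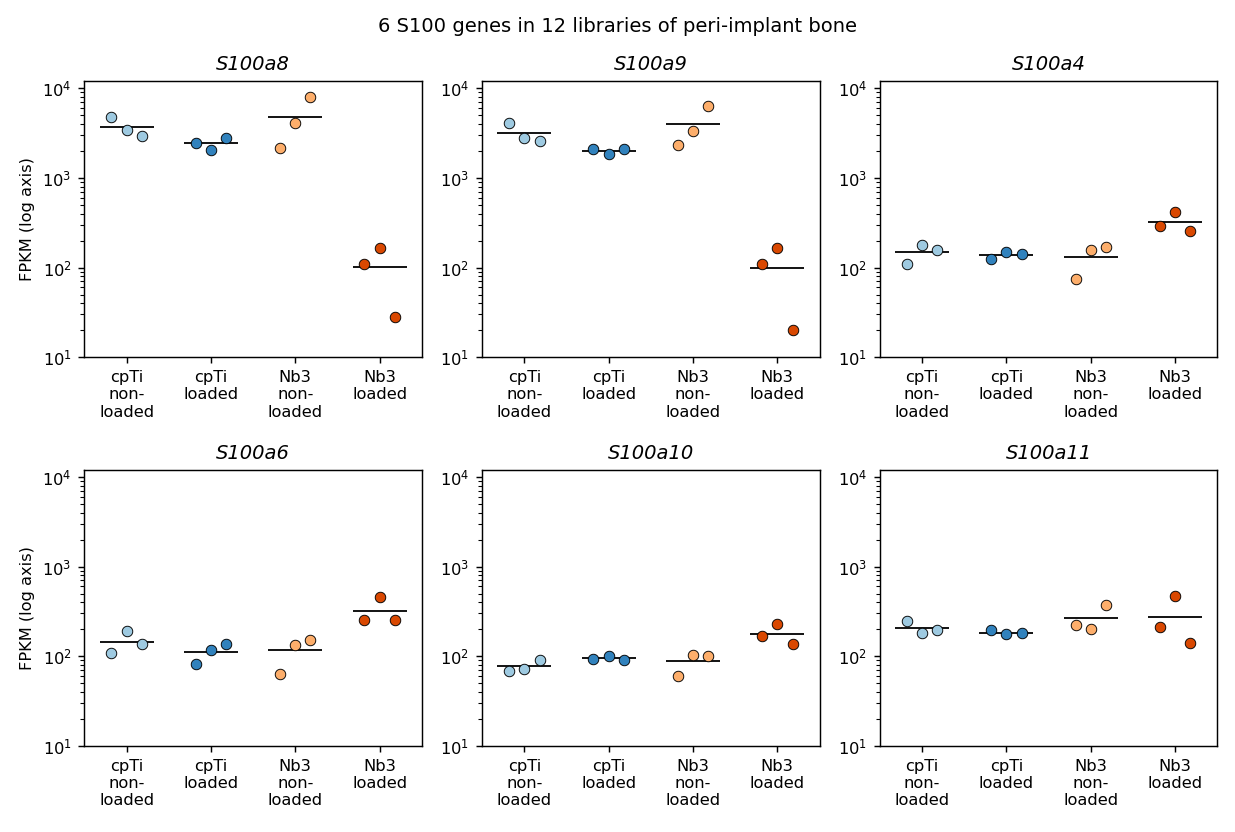
FPKM of the 6 S100 genes in each library (log axis), by implant material and loading; points are libraries and bars are group means of 3. In loaded Nb3 alloy S100a8 and S100a9 lie below all other 9 libraries, S100a4, S100a6 and S100a10 lie above all of them, and S100a11 spans their range.

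All 6 genes lie on chromosome 2 of the deposited table, whose genome build is not given in the sources used here. S100a4 (ENSRNOG00000011821, 176091804 to 176093254) and S100a6 (ENSRNOG00000011647, 176100899 to 176102180) are neighbours on the plus strand. S100a8 (ENSRNOG00000011557, 176167124 to 176167643, plus strand) and S100a9 (ENSRNOG00000011483, 176190361 to 176193230, minus strand) follow them. S100a11 (ENSRNOG00000010105, 179191715 to 179197044) and S100a10 (ENSRNOG00000023226, 179220887 to 179229661) stand further along, both on the plus strand. Genes in close reach of each other on 1 chromosome thus moved in opposite directions.

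Promoter sequences from RefSeq (rat build GRCr8, whose coordinates differ from those above) matched 4 of the 6 genes: S100a9, S100a4, S100a6 and S100a11. The 150 bases before the gene start are shown for S100a9, which fell, and for S100a4 and S100a6, which rose. That of S100a9 lies at chr2:178490623-178490772 on the minus strand, that of S100a4 at chr2:178388379-178388528 and that of S100a6 at chr2:178398387-178398536, both on the plus strand. Capitals mark TATAAA, the core of a TATA box.
S100a9: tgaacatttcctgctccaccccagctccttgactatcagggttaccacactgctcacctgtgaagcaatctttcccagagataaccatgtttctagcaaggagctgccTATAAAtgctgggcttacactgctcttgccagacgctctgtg
S100a4: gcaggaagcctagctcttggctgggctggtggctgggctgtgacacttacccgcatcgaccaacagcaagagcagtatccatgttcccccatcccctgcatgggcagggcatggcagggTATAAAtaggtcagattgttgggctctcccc
S100a6: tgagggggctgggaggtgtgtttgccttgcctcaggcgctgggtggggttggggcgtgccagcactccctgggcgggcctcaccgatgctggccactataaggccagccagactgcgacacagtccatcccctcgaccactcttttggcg

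The TATA core began 42 bases before the start in S100a9 and 31 bases before it in S100a4, while S100a6 and S100a11 had none. Over all 33469 rat promoters in the table, 12.9% held this core on either strand within 250 bases upstream. The core of a GC box, GGGCGG, stood once upstream of S100a6 and at 2 places upstream of S100a11, against 30.5% of all promoters with at least 1. A C/EBP core (TTGCNNAA, in 9.22% of promoters) and an AP-1 site (TGANTCA, in 6.34%) were not in this window of any of the 4 genes. GAGGAA, an ETS-factor core with purines before it (in 23.3%), was in that of S100a9 alone, on the strand opposite to the gene. Bases G and C made up 50.4% of the window in S100a9, 57.6% in S100a4, 62.4% in S100a6 and 62% in S100a11, around a median of 51.2% over all promoters. S100a4 and S100a6, which rose together, thus differed in the exact TATAAA core, while S100a9 and S100a4, which moved apart, shared it. S100a6 held tataag, a near match that the search did not count. These are matches of letters only.

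The first question was what cyclic loading did beside each material. S100a8, the smaller calprotectin subunit, stood at 110, 165 and 28.1 FPKM in loaded Nb3 alloy (replicates 1, 2 and 3) and at 2171, 4053 and 7918 FPKM in non-loaded Nb3 alloy. The groups did not overlap, and the highest loaded library was far under the lowest non-loaded one. The means were 101 ± 69.0 and 4714 ± 2930 FPKM (SD, n = 3), a log2 difference of -5.66 ± 0.60 (SE, adjusted p = 3.73e-05, limma with Benjamini-Hochberg adjustment). S100a8 still had 174 to 1065 reads in the loaded Nb3-alloy libraries, so its level there was low but measured, against 11632 to 39688 reads in the other libraries.

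S100a9, the larger subunit, followed the same course. It stood at 111, 166 and 19.9 FPKM in loaded Nb3 alloy and at 2300.5, 3317 and 6259 FPKM in non-loaded Nb3 alloy. Replicate 3 was lowest of the loaded libraries and highest of the non-loaded ones for both subunits, though these replicates share only a number. The log2 difference was -5.63 ± 0.64 (SE, adjusted p = 5.95e-05). The mean in loaded Nb3 alloy was 2.15% of that in non-loaded Nb3 alloy for S100a8 and 2.50% for S100a9.

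S100a4, the motility-linked member, moved the other way. It stood at 292, 416 and 258 FPKM in loaded Nb3 alloy and at 74.2, 155 and 167 FPKM in non-loaded Nb3 alloy. Every loaded library was above every non-loaded one, and the log2 difference was 1.33 ± 0.31 (SE, adjusted p = 0.0047). S100a6, or calcyclin, stood at 250.3, 452 and 254 FPKM with loading and at 63.4, 135 and 150.1 FPKM without it, again with no overlap. Its log2 difference was 1.49 ± 0.36 (SE, adjusted p = 0.00619).

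S100a10, which joins annexin A2 in a tetramer that binds plasminogen and tissue plasminogen activator at the cell surface, stood at 169, 230.04 and 137 FPKM in loaded Nb3 alloy. The non-loaded Nb3-alloy libraries stood at 60.7, 104 and 101 FPKM, all lower. The log2 difference was 1.01 ± 0.24 (SE, adjusted p = 0.00492). S100a11, a partner of annexin A1 in many cell types, stood at 211, 472 and 142 FPKM with loading and at 223, 203 and 369 FPKM without it. These groups overlapped, and the log2 difference was -0.08 with a 95% interval from -0.91 to 0.75 (adjusted p = 0.879). The mean of S100a11 was slightly higher with loading (275 ± 174 against 265 ± 90.5 FPKM), opposite in sign to the difference on the log scale, because replicate 2 was so high.

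Of the 6 genes, 3 were thus called higher and 2 lower beside loaded Nb3 alloy, where 20.7% of all tested genes were called higher and 25.2% lower. The median log2 difference of the 6 was 0.47, against -0.02 over all tested genes, and it lies between genes that moved apart. The 5 calls stood under all 14 alternatives of processing and omitted libraries, with adjusted p from 1.00e-05 to 0.0336. The log2 differences ranged from -6.18 to -4.92 for S100a8, from -6.23 to -4.73 for S100a9, from 0.96 to 1.55 for S100a4, from 1.10 to 1.72 for S100a6 and from 0.77 to 1.19 for S100a10.

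**Figure D2:**
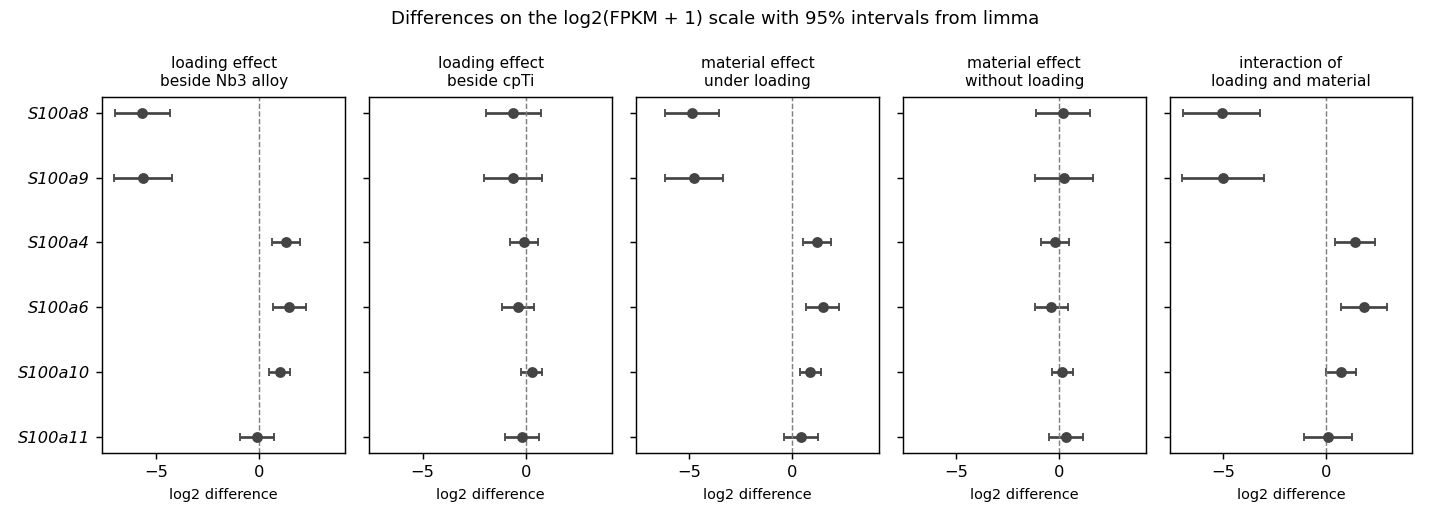
Log2 differences of the 6 genes in the 5 comparisons, on the log2(FPKM + 1) scale, with 95% intervals from limma; the dashed line marks no difference. For S100a8 and S100a9 the intervals of the comparisons with loaded Nb3 alloy end well below 0 (for S100a8 at -4.33, -3.56 and -3.19), while those of the comparisons without loaded Nb3 alloy include 0 for all 6 genes.

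Beside cpTi the same period of loading came with 0 of 6 calls, where 0.00655% of all tested genes, a single gene, was called in either direction. S100a8 stood at 2464, 2019 and 2768 FPKM in loaded cpTi and at 4707, 3425 and 2926 FPKM in non-loaded cpTi. All loaded libraries were lower, but the log2 difference of -0.59 did not pass (95% interval -1.92 to 0.74, adjusted p = 0.875). S100a9 was at 2077, 1848 and 2122 FPKM with loading and at 4104, 2772 and 2603 FPKM without it, likewise with no overlap. Its log2 difference was -0.62 (95% interval -2.04 to 0.79, adjusted p = 0.877). Both intervals are wide enough to hold a sizeable fall of the alarmin pair beside cpTi.

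The other 4 members were closer together between the cpTi groups, and none was called. S100a4 stood at 125, 148 and 142 FPKM in loaded and at 110, 179 and 157 FPKM in non-loaded cpTi (log2 difference -0.08, 95% interval -0.76 to 0.60). S100a6 stood at 82.3, 116.5 and 136 FPKM against 109, 189 and 138 FPKM (-0.37, interval -1.17 to 0.42). S100a10 stood at 93.4, 99.6 and 91.1 FPKM against 68.1, 72.5 and 91.7 FPKM (0.30, interval -0.22 to 0.82). S100a11 stood at 195, 176 and 180 FPKM against 246, 182 and 195 FPKM (-0.16, interval -0.99 to 0.66). The cpTi groups overlapped for all 4 of these genes.

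The second question was how the materials differed. Under loading, S100a8 was 23.9-fold and S100a9 20.4-fold lower in mean level beside Nb3 alloy than beside cpTi, with log2 differences of -4.88 ± 0.60 (SE, adjusted p = 0.000172) and -4.78 ± 0.64 (SE, adjusted p = 0.000312). S100a4 was 2.33-fold higher (1.19 ± 0.31, adjusted p = 0.0133), S100a6 2.86-fold higher (1.48 ± 0.36, adjusted p = 0.00963) and S100a10 1.89-fold higher (0.88 ± 0.24, adjusted p = 0.0157). In this comparison 14.7% of all tested genes were called higher and 18.9% lower. For these 5 members no loaded Nb3-alloy library overlapped a loaded cpTi one. The share of all tested genes without overlap was not counted, here or in the other comparisons. S100a11 was not called (0.39, 95% interval -0.43 to 1.22, adjusted p = 0.451).

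The members called were thus 3 higher and 2 lower. The call of S100a10 was lost without loaded Nb3 alloy replicate 2 (0.68, adjusted p = 0.0503) and without loaded cpTi replicate 3 (0.85, adjusted p = 0.0523), over a range of 0.00960 to 0.0523 in the alternatives. That of S100a4 was lost without loaded cpTi replicate 1 (1.11, adjusted p = 0.0502, range 0.00680 to 0.0502). Both comparisons of the loaded Nb3-alloy group rest on the same 3 libraries and are not independent of each other.

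Without loading, 0 of the 6 genes differed by the test between Nb3 alloy and cpTi, and the share called over all tested genes was 0% as well (limma; 470 genes had an unadjusted p under 0.05, and limma-voom on recovered reads also called 0). The log2 differences were 0.19 for S100a8 (95% interval -1.14 to 1.51) and 0.23 for S100a9 (-1.19 to 1.65). For the others they were -0.22 for S100a4 (-0.90 to 0.46), -0.38 for S100a6 (-1.17 to 0.42), 0.16 for S100a10 (-0.36 to 0.68) and 0.31 for S100a11 (-0.52 to 1.14). The means of S100a8 were 4714 ± 2930 FPKM beside Nb3 alloy and 3686 ± 919 FPKM beside cpTi, and the libraries overlapped.

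The difference between the loading effects of the materials was tested as the interaction. The loading effect beside Nb3 alloy was lower than that beside cpTi by -5.07 ± 0.85 on the log2 scale for S100a8 (SE, adjusted p = 0.0026) and by -5.01 ± 0.91 for S100a9 (SE, adjusted p = 0.00397). It was higher by 1.86 ± 0.51 for S100a6 (SE, adjusted p = 0.0267) and by 1.41 ± 0.44 for S100a4 (SE, adjusted p = 0.0429). S100a10 was not called (0.72, 95% interval -0.02 to 1.45, adjusted p = 0.158), and neither was S100a11 (0.08, interval -1.08 to 1.25, adjusted p = 0.935). For S100a10 the loading effects beside the materials were thus not shown to differ.

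In the interaction 2 members were called higher and 2 lower, where 8.42% of all tested genes were called higher and 11.8% lower. The calls of the alarmin pair stood under all 19 alternatives, with adjusted p from 0.000830 to 0.0126. The call of S100a4 was lost in 10 of the 19, among them no filter on low values (adjusted p = 0.0742), scaling by total reads (adjusted p = 0.0559) and the omission of any of loaded Nb3 alloy replicates 1 and 2, loaded cpTi replicates 1, 2 and 3, non-loaded Nb3 alloy replicate 1 and non-loaded cpTi replicates 2 and 3. That of S100a6 was lost without loaded cpTi replicate 1 (adjusted p = 0.0701), non-loaded cpTi replicate 2 (adjusted p = 0.0684) or non-loaded cpTi replicate 3 (adjusted p = 0.0521).

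In the 9 libraries other than loaded Nb3 alloy, S100a8 and S100a9 ranked among the most highly expressed genes. S100a8 ranked between 4 and 15 and S100a9 between 6 and 20 among the 15268 tested genes by FPKM. In loaded Nb3 alloy S100a8 ranked 430, 303 and 1985 in replicates 1, 2 and 3. S100a4 moved up in the same libraries, to ranks 144, 99 and 144.

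Summed over the 6 genes, S100a8 and S100a9 held 87.7% to 94.7% of the FPKM in the 9 other libraries. In loaded Nb3 alloy they held 19.3%, 17.4% and 5.73%. Of all reads on genes, the pair took 0.218% to 0.707% in the 9 libraries and 0.0112%, 0.0138% and 0.00237% in loaded Nb3 alloy. The order of the 6 genes turned with it. S100a8 led in 8 of the 9 libraries and S100a9 in the remaining one, non-loaded Nb3 alloy replicate 1. The order of these genes rests on the listed lengths, 357 bases for S100a8 and 675 for S100a9. In reads, S100a9 was above S100a8 in every library. In loaded Nb3 alloy S100a4 led in replicates 1 and 3 and S100a11 in replicate 2, and the calprotectin genes stood last.

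**Figure D3:**
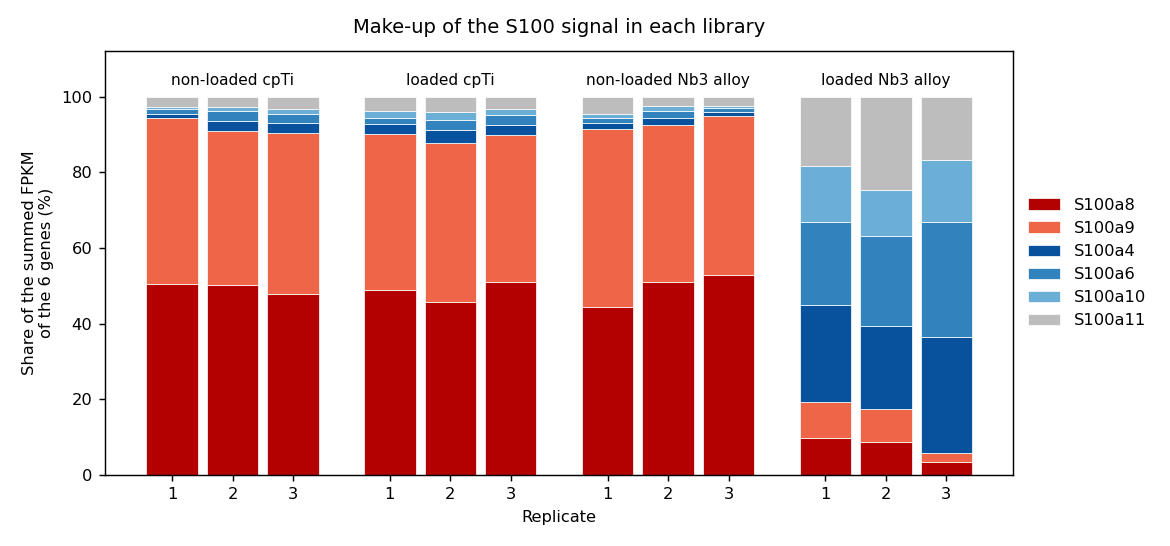
Share of the summed FPKM of the 6 genes held by each gene, per library (stacked bars, %). S100a8 and S100a9 (red shades) make up 87.7% to 94.7% in the 9 other libraries and 5.73% to 19.3% in loaded Nb3 alloy.

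The spread among libraries differed between members. Over the 9 other libraries the highest level was 3.92 times the lowest for S100a8, 3.39 times for S100a9, 2.99 times for S100a6, 2.41 times for S100a4, 2.09 times for S100a11 and 1.71 times for S100a10. Within loaded Nb3 alloy it was 5.87 times for S100a8 and 8.32 times for S100a9. Replicate 2 of loaded Nb3 alloy was the highest of its group for all 6 genes. Replicate 3 was the lowest for 5 of them, S100a6 being lowest in replicate 1. Because S100a11 reached 472 FPKM in replicate 2 and 142 FPKM in replicate 3, 1 loaded Nb3-alloy library was above and 1 below all other 9.

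The ratio of the calprotectin subunits overlapped between the groups while both genes fell. S100a9 over S100a8, in FPKM, was 1.01, 1.003 and 0.708 in loaded Nb3 alloy and 1.06, 0.818 and 0.790 in non-loaded Nb3 alloy. It was 0.843, 0.915 and 0.767 in loaded cpTi and 0.872, 0.809 and 0.890 in non-loaded cpTi. The simple comparisons, in the order used above, gave exact two-sided permutation p of 1, 0.7, 0.6 and 0.9 (each 1 after adjustment over the 8 ratio comparisons). With 3 against 3 libraries such a test cannot go below 0.1, so a modest shift in the ratio could not have been shown.

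S100a10 was called higher beside loaded Nb3 alloy and its partner was not. Anxa2, annexin A2, had a mean of 34.2 ± 10.9 FPKM with loading beside Nb3 alloy and of 29.8 ± 7.29 FPKM without it (SD, n = 3), a log2 difference of 0.18 that was not called (adjusted p = 0.505, limma). The ratio of S100a10 to Anxa2 was 6.10, 4.91 and 4.86 in loaded Nb3 alloy, against 2.28, 4.21 and 2.64 in non-loaded Nb3 alloy. Loaded cpTi gave 3.90, 4.06 and 3.84 and non-loaded cpTi 2.54, 2.88 and 3.63. The size of the ratio rests on the listed lengths, 864 bases for S100a10 and 10664 for Anxa2. In reads Anxa2 was higher, with 4874 to 9017 against 2048 to 3589 in loaded Nb3 alloy. The lengths are the same for all libraries, so differences between groups do not depend on them. All loaded libraries were above all non-loaded ones of the same material, and loaded Nb3 alloy was above loaded cpTi. The exact two-sided permutation p was 0.1 in each of these 3 comparisons, the smallest that 3 against 3 can give (0.267 after adjustment over 8), with log2 differences of 0.84, 0.40 and 0.42. Between the materials without loading the log2 difference was -0.02 (exact permutation p = 1).

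Neutrophil genes fell in the libraries where S100a8 and S100a9 fell. Of all tested genes, 25.2% were called lower beside loaded than non-loaded Nb3 alloy. All 4 neutrophil precursor markers (Mpo, Elane, Prtn3 and Ctsg, proteins of the azurophil granule) were called lower beside loaded than non-loaded Nb3 alloy, with a median log2 difference of -7.78. Their summed level was 1.26 to 2.30 FPKM in loaded Nb3 alloy, 1052 to 2341 in non-loaded Nb3 alloy, 782 to 1063 in loaded cpTi and 1059 to 1359 FPKM in non-loaded cpTi. Of 10 late neutrophil markers 8 were tested and 7 were called lower, with a median of -3.25, and their summed level was 326 to 693 FPKM against 2972 to 6353 FPKM.

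The tested late neutrophil markers kept from 1.10% to 116% of their level. This range is wide, so that S100a8 and S100a9 lie within it is no result about calprotectin. Loaded Nb3 alloy had 2.15% of the non-loaded mean for S100a8, 2.50% for S100a9 and 0.0445% for the precursor marker Mpo (myeloperoxidase). It had 1.10% for both Camp (cathelicidin) and Ngp (neutrophilic granule protein), 2.27% for Fpr1 (a formyl peptide receptor) and 2.53% for Mmp8 (neutrophil collagenase). It had 16.4% for Cxcr2 (a chemokine receptor), 22.9% for Lcn2 (lipocalin 2) and 41.2% for Csf3r (the G-CSF receptor). Mmp9, a gelatinase that osteoclasts also make, was at 116% and not called (log2 difference 0.07). Ltf and Cxcr1, the remaining late markers, did not reach the level needed for a test.

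Monocytes and macrophages are another source of calprotectin. Of all genes tested beside Nb3 alloy, 20.7% were called higher and 25.2% lower. Of 10 monocyte and macrophage markers 9 were tested. Of these, 1 was called higher, 1 lower and 7 were not called, with a median log2 difference of 0.16. Their summed level was 341 to 654 FPKM in loaded and 409 to 541 FPKM in non-loaded Nb3 alloy. Squamous epithelium can also make S100A8 and S100A9. Its markers summed to 8.24, 91.5 and 13.9 FPKM in loaded Nb3 alloy and to between 14.4 and 31.0 FPKM in the other libraries. Replicate 2, the highest of its group for all 6 S100 genes, had 51.1 FPKM of Krt5, a basal keratin, against at most 0.931 FPKM in any other library.

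The fibroblast markers, like S100a4, S100a6 and S100a10, were higher beside loaded than non-loaded Nb3 alloy. All 9 (Dcn, Lum and Col3a1 among them) were called higher, with a median log2 difference of 2.41. There 20.7% of all tested genes were called higher. The markers summed to 2077 to 3151 FPKM in loaded and 239 to 381 FPKM in non-loaded Nb3 alloy. In loaded cpTi they summed to 420 to 978 FPKM and in non-loaded cpTi to 314 to 598 FPKM. Within non-loaded Nb3 alloy their order over the replicates differed from that of the S100 genes. There the markers summed to 381, 301 and 239 FPKM in replicates 1, 2 and 3. S100a4 stood at 74.2, 155 and 167 FPKM, S100a6 at 63.4, 135 and 150.1 FPKM and S100a10 at 60.7, 104 and 101 FPKM. In the other groups the markers and S100a4 had the same order over the replicates. The markers summed to 2086, 3151 and 2077 FPKM in loaded Nb3 alloy, where S100a4 stood at 292, 416 and 258 FPKM. S100a6 kept the order of the markers in non-loaded cpTi alone and S100a10 in loaded Nb3 alloy alone. Of the endothelial markers 4 of 5, of the smooth muscle and pericyte markers 4 of 5 and of the Schwann cell markers 4 of 4 were called higher as well. All 4 erythroid and all 4 cell cycle markers were called lower, as were 25.2% of all tested genes. The osteoblast and osteocyte markers, which define the labelled tissue, were present in every library at a summed 3242 to 18026 FPKM. The part of these cell markers in the S100 differences was not tested, and in bulk tissue fewer cells of a type and less RNA per cell cannot be told apart.

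**Figure D4:**
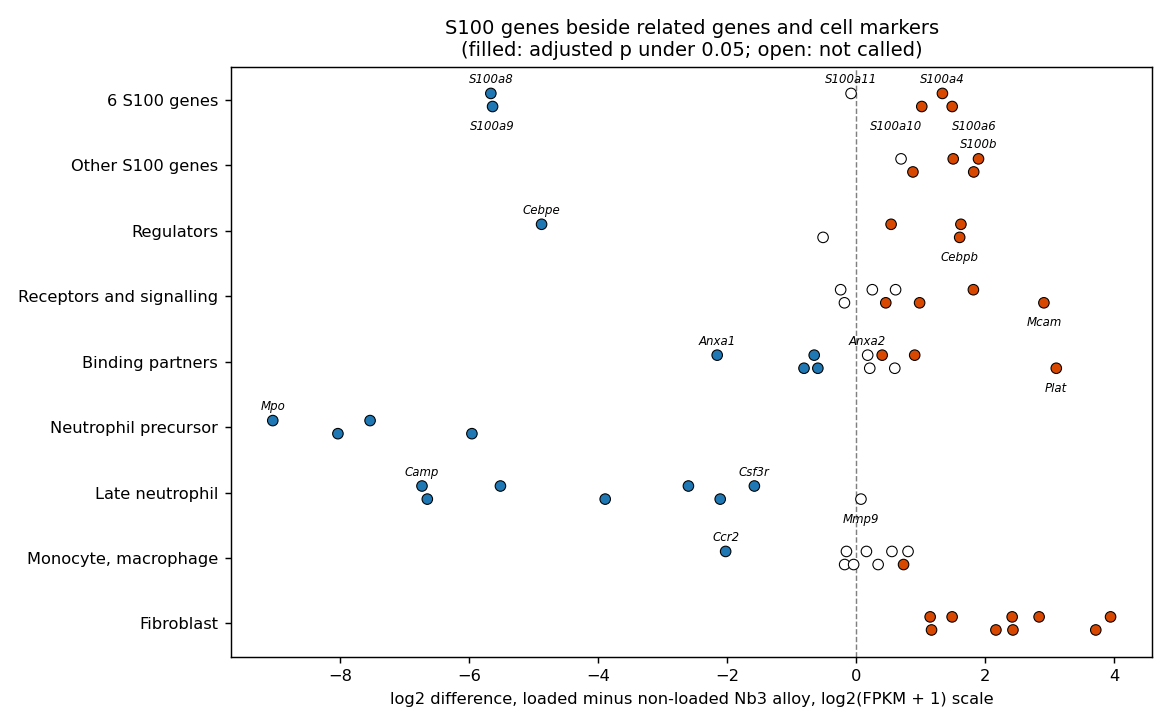
Log2 difference between loaded and non-loaded Nb3 alloy for the tested genes of 9 lists (1 point per gene; orange, called higher; blue, called lower; white, not called). S100a8 and S100a9 lie within the wide span of the precursor and late neutrophil markers, from -9.04 (Mpo) to 0.07 (Mmp9). S100a4, S100a6 and S100a10 lie on the side of the 9 fibroblast markers.

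Reads on genes numbered 12.9 to 22.3 M per library, and 11.97%, 24.3% and 11.3% of those in loaded Nb3 alloy were mitochondrial, against 4.31% to 6.86% in the others. Scaling by total reads moved the median log2 difference of all genes beside Nb3 alloy from -0.02 to -0.17, and the split of calls from 3156 higher and 3840 lower to 2266 and 4668. Between the loaded groups it moved the split from 2239 and 2884 to 1358 and 3671, and in the interaction from 1285 and 1804 to 845 and 2386. The part of depth and of mitochondrial reads in the S100 differences was not tested.

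Among the other S100 genes that could be tested, most were called higher beside loaded Nb3 alloy, as S100a4, S100a6 and S100a10 were. Of 11 listed, 10 were in the table and 5 reached the level for a test. Of these, 4 were called higher and 0 lower beside loaded than non-loaded Nb3 alloy (median log2 difference 1.5). Over all tested genes 20.7% were called higher and 25.2% lower. S100z, at 0 to 0.0456 FPKM in loaded and 0.556 to 1.295 FPKM in non-loaded Nb3 alloy, did not reach that level. S100a14 was under 1 FPKM in every non-loaded library and reached the level only through loaded libraries, mostly of Nb3 alloy. Its log2 difference is also the median given here. Both the counts and the median therefore depend on the level set for a test. S100a16, a widely expressed member, stood at 86.0 ± 15.4 FPKM against 23.6 ± 4.44 FPKM (SD, n = 3), a log2 difference of 1.82 ± 0.22 (SE, adjusted p = 8.04e-05, limma). S100b, known from glia, Schwann cells and cartilage, stood at 21.1 ± 6.27 against 4.79 ± 0.478 FPKM (1.89 ± 0.23, adjusted p = 9.89e-05). S100a1, best known from striated muscle, was called as well (0.88 ± 0.22, adjusted p = 0.00679), and S100a3 was not (0.69, adjusted p = 0.129).

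S100a14, an epithelial member, was called higher (1.5 ± 0.47, adjusted p = 0.0225) at low levels that were uneven. It stood at 0.503, 7.05 and 2.02 FPKM in loaded Nb3 alloy, against 0.0598, 0.270 and 0.197 FPKM in non-loaded Nb3 alloy. The highest of these was again replicate 2. Against loaded cpTi 2 of the 5 genes were called higher, S100a16 (1.43) and S100b (0.96). There 14.7% of all tested genes were called higher and 18.9% lower. In either of the remaining simple comparisons 0 of 5 were called, as was nearly none of all tested genes.

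Among the receptors through which released S100 proteins act, some were higher where the alarmins were lower. Of 9 receptor and signalling genes listed, 8 were tested, of which 4 were called higher and 0 lower beside loaded than non-loaded Nb3 alloy (median log2 difference 0.53), where 20.7% and 25.2% of all tested genes were. Mcam, a melanoma cell adhesion molecule of vessel walls that binds S100A8/A9, stood at 71.6 ± 36.4 against 8.17 ± 2.43 FPKM (2.91 ± 0.32, adjusted p = 4.41e-05). Bsg, basigin, a receptor of S100A9, stood at 205.5 ± 23.4 against 103.6 ± 11.9 FPKM (0.98 ± 0.15, adjusted p = 0.000333). Its relative Nptn, neuroplastin, was called too (0.46 ± 0.11, adjusted p = 0.00573).

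Cd14, a co-receptor of Toll-like receptor 4, stood at 44.6, 120 and 24.1 FPKM against 10.8, 14.7 and 16.2 FPKM (1.81 ± 0.45, adjusted p = 0.00742). The loaded libraries were all higher, replicate 2 by the widest margin. The receptors Tlr4 (-0.24, adjusted p = 0.490) and Ager (0.25, adjusted p = 0.436) did not pass the test, nor did the Tlr4 accessory Ly96 (0.61, adjusted p = 0.0942) and adaptor Myd88 (-0.18, adjusted p = 0.592). Under loading 4 of the 8 genes were called higher beside Nb3 alloy than beside cpTi and 0 lower, where 14.7% and 18.9% of all tested genes were.

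Of the intracellular binding partners, members were called in both directions. Of 11 listed, 10 were tested, and 3 were called higher and 4 lower beside loaded than non-loaded Nb3 alloy, near the 20.7% and 25.2% of all tested genes. These counts are therefore no result about the partners as a list. Anxa1, annexin A1, an anti-inflammatory protein abundant in neutrophils and the partner of S100A11, stood at 123.5 ± 38.8 against 562 ± 216 FPKM (SD, n = 3), a log2 difference of -2.15 ± 0.30 (adjusted p = 0.000216). Myh9, the non-muscle myosin heavy chain bound by S100A4, was called lower (-0.81, adjusted p = 0.0182) while S100a4 rose. Cacybp, the calcyclin-binding protein, was called lower (-0.65, adjusted p = 0.0134) while S100a6 rose, and Anxa11, a further S100A6 partner, was called lower too (-0.60, adjusted p = 0.0172).

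Plat, tissue plasminogen activator, which binds the S100A10 tetramer, was called higher at 40.0 ± 24.2 against 3.29 ± 0.219 FPKM (3.10 ± 0.46, adjusted p = 0.000309). Ppfibp1, liprin beta 1, a partner of S100A4, was called higher (0.90 ± 0.15, adjusted p = 0.000614), as was Anxa6 (0.40, adjusted p = 0.0127). Ahnak, a scaffold bound by the S100A10 tetramer, was not called (0.60, adjusted p = 0.0889), nor was the co-chaperone Sugt1 (0.21, adjusted p = 0.290). Plg, plasminogen, did not reach the level for a test. Against loaded cpTi 3 of the 10 were called higher and 2 lower, where 14.7% and 18.9% of all tested genes were.

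The other alarmins that could be tested did not pass the test. Of 4 listed, 3 were tested and 0 were called beside Nb3 alloy. Log2 differences were 0.26 for Il33, -0.35 for the row listed as Hmgb1 and 0.26 for Hmgn1. The Hmgb1 row lies on chromosome 16 from 34028446 to 34030648. Its length of 2203 bases fills that span and leaves no room for introns. Whether this row measures the Hmgb1 gene itself was not tested. Il1a was below the level for a test. It stood at 0.261, 2.94 and 1.05 FPKM in loaded and at 0.204 to 0.308 FPKM in non-loaded Nb3 alloy. Of 6 transcription factors known to act on myeloid S100 genes, 5 were tested. Of these, 3 were called higher and 1 lower, where 20.7% and 25.2% of all tested genes were. Cebpe, which drives late granulocyte maturation, stood at 0.643 ± 0.522 FPKM in loaded and at 47.0 ± 14.1 FPKM in non-loaded Nb3 alloy, a log2 difference of -4.88 ± 0.29 (adjusted p = 6.25e-07). Its relatives Cebpb and Cebpd, which respond to inflammation in many cell types, went up: Cebpb was at 110 ± 56.6 against 32.2 ± 6.48 FPKM (1.60 ± 0.35, adjusted p = 0.00349) and Cebpd at 105 ± 52.4 against 30.6 ± 5.98 FPKM (1.62 ± 0.36, adjusted p = 0.00393). Stat3 was called higher (0.54 ± 0.17, adjusted p = 0.0245) and Spi1, or PU.1, was not called (-0.51, adjusted p = 0.217).

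Genes with the most similar profiles were sought over all tested genes by the root mean square difference of the centred log2(FPKM + 1) profiles over the 12 libraries, which share depth scaling and the setting apart of loaded Nb3 alloy. For S100a8 the closest was S100a9 at 0.16 log2 units, where the median gene differed by 2.44. Prg3 (0.22), Epx (0.41), Retnlg (0.43) and Ifitm6 (0.45) came next. Prg3 and Epx encode granule proteins of eosinophils. Beside S100a9 stood S100a8, Prg3 (0.23), Retnlg (0.40), Epx (0.41) and Mmp8 (0.43).

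S100a4 was closest to S100a6 (0.19), and S100a6 was closest to S100a4. Cdkn2b, a cell cycle inhibitor, came second for both (0.24 and 0.26), and S100a10 came next for S100a4 (0.24). Next to S100a10 stood Npc2 (0.14), Dnase2 (0.16), Nme2 (0.17), Serpinb6a (0.18) and Tmsb10 (0.18). Next to S100a11 stood the glycolytic genes Gapdh (0.14) and Pkm (0.16), with Hvcn1 (0.16), Rspo1 (0.17) and Tes (0.17). The median gene differed by 0.69 from S100a4, 0.78 from S100a6, 0.59 from S100a10 and 0.57 from S100a11, far less than from S100a8.

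Over the 9 libraries without the loaded Nb3-alloy group, S100a9 was still closest to S100a8, at 0.13. The median gene then differed by 0.60 from S100a8, 0.43 from S100a4, 0.49 from S100a6, 0.34 from S100a10 and 0.36 from S100a11. Distances are therefore not comparable between members or between the sets of 9 and 12 libraries. Prg2 (0.17), Ear1 (0.21), Prg3 (0.22) and Arhgdib (0.24) followed for S100a8. S100a6 was now at rank 14 for S100a4 (0.19), whereas S100a4 stood at rank 2 for S100a6. Closest were Ndufb4 (0.16) for S100a4, Mrgprx3 (0.18) for S100a6 and Rgs10 (0.085) for S100a10. S100a11, which did not pass the test anywhere, was closest to Lcp1 (0.044), Pgd (0.059), Sh2d5 (0.067), Lst1 (0.078) and Alox5ap (0.083). Lcp1, Lst1 and Alox5ap are genes of leukocytes, and none of the 5 is among its closest over 12 libraries.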

How the data were processed

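Polyadenylated RNA of 12 libraries of peri-implant bone was sequenced by the study. The authors deposited 1 table of FPKM for 33801 genes. Tools listed, with no roles, in the submitters' processing notes are HISAT2 2.0.5, DESeq2 1.20.0, featureCounts 1.5.0-p3, CASAVA 1.8 and fastp. The build, the annotation and the use of strand in counting are not given in the sources, so reads of overlapping antisense genes cannot be told apart. Multiplied by gene length, 100% of FPKM values were whole reads within 0.01 read, and these summed to 12.9 to 22.3 M reads on genes per library.

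Genes with at least 1 FPKM in at least 3 libraries were tested (15268; 18533 were not). The log2(FPKM + 1) values were fitted with limma 3.58.1 (statmod 1.5.0, R 4.3.3), 1 mean per group, all 12 libraries, 8 residual degrees of freedom and trended, robust empirical Bayes moderation. On this scale the folds of weakly expressed genes come out too small. Adjusted p-values are Benjamini-Hochberg over all tested genes, and a gene was called under 0.05. The design foresaw a count test had the table held counts, so its FPKM alternative was followed. Ratios were compared by exact two-sided permutation. Promoter sequences are from RefSeq. Plots were drawn with matplotlib 3.10.9, and tables were made with scipy 1.17.1, pandas 2.3.3 and numpy 2.4.6 in Python 3.11.15. The procedure was tested on simulated data.

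The members, lists and marker genes were chosen with earlier results of these data known. The genes named are the members, any gene of the lists of S100 relatives, receptors, partners, alarmins, regulators and cell markers, and the 5 genes closest to each member in profile. Same-numbered libraries of different groups did not deviate together, so no pairing was used. Alternatives were a pseudocount of 0.1, no filter, total-read scaling, quantile normalization, limma-voom on recovered reads, the replicate number as a block, moderation without trend or robustness, only the compared groups in the fit, and the omission of each library.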

Additional observations from a re-analysis of the deposited data

Results flagged for a closer look

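For the following genes the effect of loading differed between the materials by the test of the interaction in limma (adjusted p under 0.05); values are log2 differences between the loading effect beside Nb3 alloy and that beside cpTi. Groups of 3 libraries were too small to test for single outlying libraries.

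Among the 6 S100 genes the difference was -5.07 for S100a8, -5.01 for S100a9, 1.41 for S100a4 and 1.86 for S100a6. Among other S100 genes it was 1.81 for S100a16, 2.14 for S100b and 0.96 for S100a1. Among receptors it was 2.93 for Mcam and 0.65 for Bsg. Among binding partners it was 3.23 for Plat, 0.71 for Ppfibp1 and -1.66 for Anxa1. Among regulators it was -4.22 for Cebpe, 1.63 for Cebpb and 1.8 for Cebpd.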

How the results depend on the processing

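All 5 calls of S100 genes between loaded and non-loaded Nb3 alloy, and those of S100a8, S100a9 and S100a6 between the loaded groups, kept their direction and their side of the threshold under every alternative run. With each library left out in turn, the number of the 6 genes called in the interaction ranged from 2 to 4, being 2 without loaded cpTi replicate 1, non-loaded cpTi replicate 2 or non-loaded cpTi replicate 3. The number of all genes called in the interaction then ranged from 1986 to 3159, in the loading effect beside cpTi from 0 to 4 and in the material effect without loading from 0 to 4. Genes called for loading beside cpTi numbered 0 with a pseudocount of 0.1, with limma-voom on recovered reads and with the compared groups fitted alone, 2 without the filter, and 3 with quantile normalization and with the non-robust fit. Without the filter 1 gene was called for the material effect without loading.

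Changes of sign were limited to results that were not called. The interaction of S100a11 was -0.10 with scaling by total reads. With each library left out, it ranged from -0.40 to 0.47, the loading effect of S100a11 beside Nb3 alloy from -0.56 to 0.30 and its material effect under loading from -0.087 to 0.78. The loading effect of S100a4 beside cpTi ranged from -0.28 to 0.071. The material effect without loading ranged from -0.44 to 0.15 for S100a4, from -0.61 to 0.0062 for S100a6, from -0.28 to 0.65 for S100a8 and from -0.16 to 0.56 for S100a9. The log2 ratio of S100a9 to S100a8 ranged from -0.065 to 0.19 for loading beside Nb3 alloy, from -0.091 to 0.037 for loading beside cpTi and from -0.090 to 0.12 for the materials without loading, where that of S100a10 to Anxa2 ranged from -0.28 to 0.16. The cause of these changes was not tested.

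Same-numbered libraries correlated at -0.25 to 0.115 in their deviations from the group means, and the numbers were not taken as pairs. With the replicate number as a block 6568 genes were called for loading beside Nb3 alloy, 0 beside cpTi, 4591 for material under loading, 0 without loading and 2608 in the interaction, and 5, 0, 5, 0 and 4 of the 6 S100 genes. A fit on log2(FPKM + 1) limits low genes such as S100a14, and 3 libraries a group limit every ratio test to p of 0.1 or more.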

Other observations

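Among the S100 genes below the level for a test, S100a5, a member known from olfactory neurons, was listed at 14.8 FPKM (114 reads) in loaded Nb3 alloy replicate 3. It was at 0.136 and 0.124 FPKM in replicates 1 and 2 of that group and at no more than 0.609 FPKM in the other 9 libraries. S100z stood at 0.974, 0.556 and 1.295 FPKM in non-loaded Nb3 alloy, at 0.226 to 0.441 FPKM in loaded cpTi and at 0.294 to 1.16 FPKM in non-loaded cpTi. In loaded Nb3 alloy it had 1 read in replicate 3 and 0 in the other replicates. S100a7l2 was listed at 0 in all 12 libraries. These genes were singled out after their values were seen.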
